A study of Mus musculus with 24 samples.

Results

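The epidermal differentiation complex is a cluster of skin barrier genes on mouse chromosome 3. Its accessible regions were taken from 8 deposited lists of ATAC-seq peaks, in which a transposase marks stretches of DNA that are free to be cut. The 267990 peaks were merged into 63188 regions, each region was given to the nearest protein-coding gene at most 50 kb away, and the regions on chromosome 3 of genes named S100a, Lce or Sprr and of Flg, Flg2, Hrnr, Rptn, Tchh, Tchhl1, Ivl, Crnn and Lor were kept. This gave 105 regions of 63188, of which 52791 had a gene. The gene table held 59 genes of these names, and 38 of them had at least 1 region. The 21 genes with none were Flg, S100a13, S100a2, S100a5, 6 Sprr2 genes and 11 Lce genes. S100a13 is among them only because the region over its start, held by all 8 lists, also overlaps the shorter S100a1 and was given to it.

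The 24 samples were sorted skin cells of a CD1 x C57BL/6J cross. Unwounded Krt19-CreER/R26-YFP mice gave hair follicle stem cells on day 0 (4 samples) and epidermal stem cells on day 0 (4 samples) and day 80 (3 samples). Krt19-CreER/R26-YFP mice with a partial-thickness wound gave the progeny of hair follicle stem cells on day 3 (3 samples), day 7 (2 samples) and day 80 (3 samples). Sox9-CreER/R26-YFP mice with a full-thickness wound gave cells assigned to the epidermal lineage on day 7 (3 samples) and day 80 (2 samples). Every group thus carried an inducible Cre and the R26-YFP reporter, and the genotype of the full-thickness mice differed from that of all the others, so genotype and wound type cannot be told apart. Each group was deposited as 1 peak list, so there was no replicate error and no test between groups: a region was either held by a list (at least 1 bp of overlap) or not, and shares have exact 95% Clopper-Pearson intervals, which cover only the error of counting. Whether a list pools its samples was not given in the sources used here, and sequencing depth is unknown.

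The complex encodes most proteins of the cornified envelope, the cross-linked shell that replaces the plasma membrane of dying keratinocytes at the skin surface. Involucrin, loricrin, the small proline-rich (Sprr) proteins and the late cornified envelope (Lce) proteins are its building blocks. S100 proteins are small calcium-binding proteins, and the fused S100 proteins (filaggrin, filaggrin 2, hornerin, repetin, trichohyalin, trichohyalin-like 1 and cornulin) join an S100 domain to long repeats that bind or cross-link keratin. Basal stem cells carry these genes mostly silent, since the envelope proteins are made in the layers above. AP-1, a dimer of Fos and Jun proteins, is a known activator of several of these promoters.

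The sequences of 8 promoters are printed as examples of situations found at gene starts. S100a8, Sprr2h, Sprr1b and Ivl had a peak over the start in wound lists alone, Sprr1a and Crnn had one in all 8 lists, and Sprr2d and Flg had none in any list. Each is the 250 bases before the gene's start in the GRCm38.p6 (mm10) assembly, from RefSeq, written 5′ to 3′ in the direction of the gene. Capitals mark matches to the AP-1 motif TGANTCA and to the TATA box TATAAA on either strand.
S100a8 (chr3:90668821-90669070, plus strand): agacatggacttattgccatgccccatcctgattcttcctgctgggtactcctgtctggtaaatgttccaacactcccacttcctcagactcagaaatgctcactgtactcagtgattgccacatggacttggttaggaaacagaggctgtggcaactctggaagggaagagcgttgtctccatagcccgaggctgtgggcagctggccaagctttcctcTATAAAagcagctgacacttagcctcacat
Sprr2h (chr3:92385435-92385684, plus strand): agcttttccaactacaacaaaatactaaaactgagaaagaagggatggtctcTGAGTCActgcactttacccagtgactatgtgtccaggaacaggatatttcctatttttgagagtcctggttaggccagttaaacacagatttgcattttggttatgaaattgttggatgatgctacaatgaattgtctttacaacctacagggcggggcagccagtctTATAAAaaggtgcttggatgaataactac
Sprr1b (chr3:92438780-92439029, minus strand): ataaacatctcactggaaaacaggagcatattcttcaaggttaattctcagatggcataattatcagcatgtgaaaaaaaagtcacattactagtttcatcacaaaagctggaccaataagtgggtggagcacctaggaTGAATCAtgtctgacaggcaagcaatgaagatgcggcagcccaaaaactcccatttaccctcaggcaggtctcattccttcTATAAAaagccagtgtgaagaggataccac
Ivl (chr3:92573736-92573985, minus strand): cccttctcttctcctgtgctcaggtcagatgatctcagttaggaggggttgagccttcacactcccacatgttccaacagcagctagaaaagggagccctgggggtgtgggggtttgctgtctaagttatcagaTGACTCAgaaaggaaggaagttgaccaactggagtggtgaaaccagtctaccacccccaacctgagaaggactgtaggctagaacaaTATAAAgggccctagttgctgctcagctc
Sprr1a (chr3:92485882-92486131, minus strand): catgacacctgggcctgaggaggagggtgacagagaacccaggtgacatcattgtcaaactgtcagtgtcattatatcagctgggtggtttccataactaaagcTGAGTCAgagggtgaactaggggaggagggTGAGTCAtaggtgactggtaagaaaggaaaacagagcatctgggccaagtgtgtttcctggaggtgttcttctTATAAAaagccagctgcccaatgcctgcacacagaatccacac
Crnn (chr3:93144539-93144788, plus strand): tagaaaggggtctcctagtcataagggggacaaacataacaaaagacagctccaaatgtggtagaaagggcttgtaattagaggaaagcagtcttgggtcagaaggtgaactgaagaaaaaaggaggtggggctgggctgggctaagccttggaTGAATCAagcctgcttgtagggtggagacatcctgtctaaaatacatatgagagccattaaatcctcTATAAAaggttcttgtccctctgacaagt
Sprr2d (chr3:92338890-92339139, plus strand): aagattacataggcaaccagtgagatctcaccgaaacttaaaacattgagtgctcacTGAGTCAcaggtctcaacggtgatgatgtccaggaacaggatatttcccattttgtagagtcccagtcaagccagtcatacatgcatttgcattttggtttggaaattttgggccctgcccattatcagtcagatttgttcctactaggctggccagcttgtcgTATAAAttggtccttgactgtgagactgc
Flg (chr3:93273296-93273545, plus strand): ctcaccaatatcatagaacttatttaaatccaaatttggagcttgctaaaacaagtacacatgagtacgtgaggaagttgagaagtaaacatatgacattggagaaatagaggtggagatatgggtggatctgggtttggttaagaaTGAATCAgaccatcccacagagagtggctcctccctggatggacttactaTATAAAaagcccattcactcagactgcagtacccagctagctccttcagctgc
A TATA box stands in all 8 of these sequences, 29 bases before the start in Sprr2h, Ivl, Crnn and Sprr2d, 30 in S100a8 and Sprr1b, 43 in Sprr1a and 53 in Flg. S100a8 alone of the 8 has no AP-1 match. The match lies 116 bases before the start of Ivl, 111 before Sprr1b, 146 and 116 before Sprr1a, 96 before Crnn and 103 before Flg. Sprr2h and Sprr2d have the same 7 letters, TGAGTCA, 198 and 193 bases before their starts, although Sprr2h was held by 3 lists and Sprr2d by none. Absence at Sprr2d is uncertain, since it has a near copy and the treatment of reads that match several places is unknown.

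The 59 genes span chr3:90511034-93564645, and 98 of the 105 regions lie within these 3054 kb. The other 7 lie beyond S100a10, the last gene of the span. The span held 123 regions in all, and its longest stretch without one measured 728 kb, from 91284370 to 92012078. The 25 regions in it that were not kept belong to neighbours such as Pglyrp3, Pglyrp4, Lelp1 and Smcp, and 2 of them had no gene within reach. The kept regions had a median width of 784 bp (236 to 3275), against 951 bp over all regions. Of the 105, 29 lay inside a gene, 3 within 1 kb of it, 35 between 1 and 10 kb and 38 beyond 10 kb. The window of 50 kb cut none of them off, as the farthest lay 31997 bp from its gene (S100a10), the next lay 30281 bp away (Sprr4), and none lay between 50 and 100 kb.

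The 105 regions divided into a constant set and a changing set. All 8 lists held 28 of them (26.7%, interval 18.5 to 36.2), against 22.0% of all regions, and 15 of the 28 lay inside a gene or within 1 kb of it. A single list held 23 regions (21.9%, against 26.6% of all regions), 2 lists held 15 (14.3%, against 12.5%) and 3 held 10 (9.52%, against 10.3%). For 4 lists the count was 14 (13.3%, against 8.19%) and for 5 it was 5 (4.76%, against 6.27%). It was 1 for 6 lists (0.952%, against 5.7%) and 9 for 7 lists (8.57%, against 8.43%). Most of these shares lay near those of all regions. S100 genes made up 15 of the 28 constant regions, the fused S100 genes 7, Sprr genes 3, Lce genes 2, and loricrin the last.

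**Figure D1:**
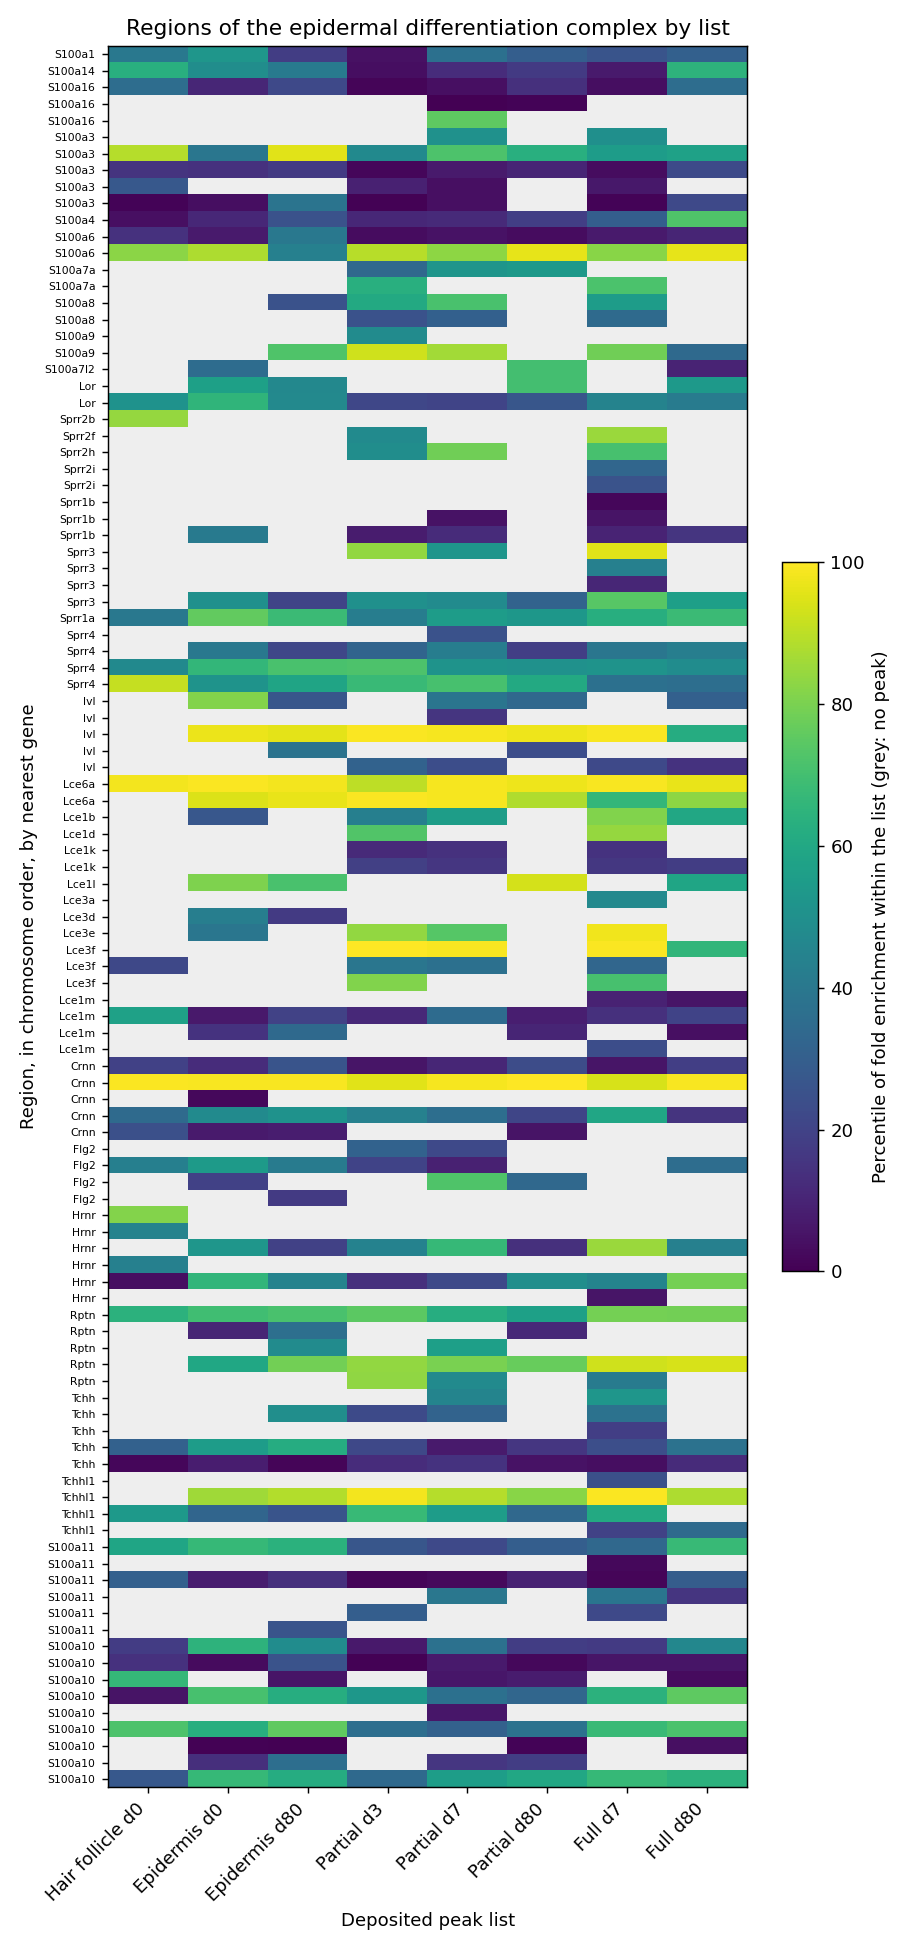
The 105 regions (rows, in order along chromosome 3, named by nearest gene) in the 8 peak lists (columns). Colour gives the percentile of the peak's fold enrichment within its own list, from 0 to 100, and grey marks a region the list does not hold. The 28 regions in all 8 lists form unbroken rows, 15 of them of S100 genes and 7 of fused S100 genes.

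The day 7 full-thickness list held the most regions of the complex and the hair follicle list the fewest. The hair follicle list held 39 of 105 (37.1%, interval 27.9 to 47.1), against 45.9% of all regions. The day 0 epidermal list held 53 (50.5%, 40.5 to 60.4), against 47.8%, and the day 80 epidermal list held 55 (52.4%, 42.4 to 62.2), against 49.8%. Unwounded epidermis thus lay near the background and the hair follicle list below it, with an upper bound just above the background.

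After the partial-thickness wound the lists held 62 regions on day 3 (59.0%, 49.0 to 68.5), against 56.6% of all regions, and 70 on day 7 (66.7%, 56.8 to 75.6), against 55.0%. On day 80 the list held 50 (47.6%, 37.8 to 57.6), against 51.9%. After the full-thickness wound the lists held 75 on day 7 (71.4%, 61.8 to 79.8), against 58.0%, and 53 on day 80 (50.5%, 40.5 to 60.4), against 51.1%. The interval lay above the background on day 7 of both wounds and included it on day 3 and on day 80. Lists cut to equal length held 54, 58 and 55 regions on day 3, on day 7 of the partial-thickness and on day 7 of the full-thickness wound, against 52 in each unwounded epidermal list, and between 45 and 46.3% of all regions. The gain of the complex on day 7 was therefore smaller once the lists had the same number of peaks. For the full-thickness wound the interval for 55 (52.4%, 42.4 to 62.2) then included the background of 46%. For the 58 of the partial-thickness wound, against 45.7% of all regions, no interval was computed. Whether that count lies beyond the error of counting is therefore not shown. With the upper 75% of peaks both day 7 lists held 53 (50.5%, 40.5 to 60.4), against 41.5 and 43.7% of all regions. That interval included both backgrounds. With peaks that cover 50% of a region the day 7 lists held 64 and 72, against 50.4 and 55.2%.

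**Figure D2:**
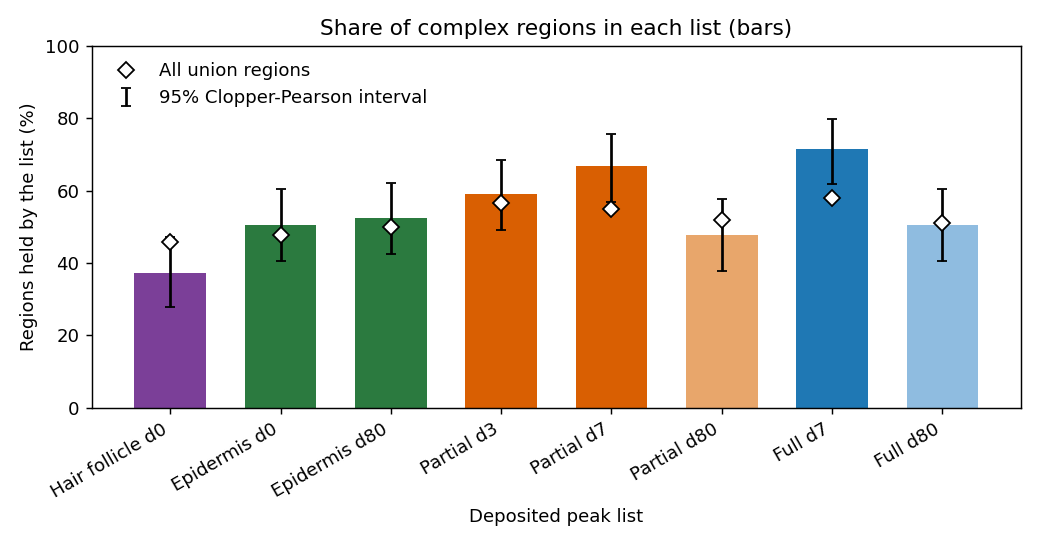
Share of the 105 regions of the complex held by each list (bars, percent) with exact 95% Clopper-Pearson intervals, beside the share of all 63188 regions held by the same list (open diamonds). The bars of day 7 of both wounds stand above their diamonds, and the hair follicle bar is the lowest, at 37.1%.

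The lists were not cut at the same strength. On the authors' −log10 p scale the weakest peak kept had 39.70 on day 3, 40.19 on day 7 of the partial-thickness wound and 32.24 on day 7 of the full-thickness wound. It had 17.30 for hair follicle cells, 13.52 (day 0) and 7.86 (day 80) for unwounded epidermis, and 21.04 and 7.98 on day 80 of the partial-thickness and full-thickness wound. The median peak was narrowest on day 80 of the full-thickness wound, at 460 bp, and widest on day 3, at 987 bp. The lists with the most regions of the complex thus had high cuts, and the part of cut, width and depth in the counts was not tested. Hair follicle markers went with the labels: 33 of the 56 regions of Sox9, Lhx2, Lgr5, Cd34, Nfatc1 and Krt15 were held in hair follicle cells and 16 in day 0 epidermis. Of 50 regions of 6 basal keratinocyte genes, however, hair follicle cells held 25 and day 0 epidermis 11. The peak names of the day 0 epidermal list carry a control tag for day 7, a group the labels do not have, and with the day 80 epidermal list in its place the 3 counts that rest on it (hair follicle alone and epidermis alone of the pair, and wound-gained) moved by less than 1.5 times.

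With 1 bp of overlap every list held most of the S100 regions. Of their 35 regions the hair follicle list held 18, the unwounded epidermal lists 19 and 22, the partial-thickness lists 24, 28 and 21 from day 3 to day 80, and those of the full-thickness wound 25 and 21. The hair follicle share (51.4%) and that of day 0 epidermis (54.3%) lay near the 45.9 and 47.8% of all regions. With lists of equal length each list held 18 to 23. With peaks that cover 50% of a region the hair follicle list held 15, day 0 epidermis 14 and the day 80 full-thickness list 6. With the upper 75% of peaks the hair follicle list held 16 and day 0 epidermis 13, so not every list then held most of them. Regions over the starts of S100a1, S100a16, S100a3, S100a6 and S100a11 were in all 8 lists, as was a region inside S100a10, which encodes the annexin A2 partner p11. The region with the highest fold enrichment of the S100 genes, at chr3:90629047-90629985 and 14633 bp downstream of S100a6, was held by all 8 lists as well. Fold enrichments here are the peak caller's, over the local background of 1 list, and percentiles rank the peak among those of its own list. For this region the fold was 11.21 in hair follicle cells, 11.44 and 7.36 in unwounded epidermis, 11.76, 13.06 and 14.48 after the partial-thickness wound and 10.38 and 15.54 after the full-thickness wound. Within its own list it ranked lowest in day 80 epidermis, at percentile 43.6, and highest in the day 80 wounds, at 96.2 and 96.1.

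S100a7a, S100a8 and S100a9 were the exception among the S100 genes. S100a8 and S100a9 together form calprotectin, an antimicrobial complex made by keratinocytes of injured skin and, in large amounts, by neutrophils, and S100a7a encodes a psoriasin relative. None of their 6 regions was held by the hair follicle list or by day 0 epidermis. The S100a8 start region, chr3:90668728-90669564, was held on day 3 (fold 7.01), on day 7 of the partial-thickness wound (8.64) and on day 7 of the full-thickness wound (7.30), and by neither day 80 wound. These folds rank at percentiles 25.3, 30.7 and 34.6 of their lists, and with lists of equal length, or with the upper 75% of peaks by score, only the day 7 full-thickness list still held the region. The S100a8 region is thus a weak peak in each list that holds it.

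A stronger peak lay upstream of S100a9. The region chr3:90709800-90710561, 14079 bp upstream, had a fold of 12.36 on day 3 (percentile 92.8), 13.49 on day 7 of the partial-thickness wound (86.0) and 9.99 on day 7 of the full-thickness wound. It was also held by day 80 epidermis (9.66) and the day 80 full-thickness list (7.38). The region at chr3:90664169-90664676, 4395 bp upstream of S100a8, had folds of 9.23, 11.78 and 8.38 in the early wound lists and 6.10 in day 80 epidermis. Day 80 epidermis therefore shared 2 of these regions, which the day 0 list lacked. The S100a9 start region, chr3:90695195-90696176, was held on day 3 alone, with a fold of 8.54, and no longer with lists of equal length.

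Inside S100a7a, chr3:90652827-90653427 was held by the 3 partial-thickness lists, with folds of 7.63, 10.26 and 9.45 from day 3 to day 80, and by no full-thickness list. With lists of equal length the day 80 partial-thickness list alone held it, and with the upper 75% of peaks no list did. The other S100a7a region, 675 bp downstream, was held on day 3 (fold 9.36) and on day 7 of the full-thickness wound (9.45). Both of these settings left that call the same. The neutrophil and monocyte markers Ly6g, Csf3r, Mpo, Elane, Lcn2 and Lyz2 had no region in any of the 8 lists. The other 2 of the 8 markers, Cxcr2 and Itgam, had 5 regions, of which the hair follicle list held 0, each unwounded epidermal list 4, and the wound lists 3 to 5. With 5 regions of 2 genes, the part of other cell types in the S100a8 and S100a9 peaks was not tested. The markers of T cells and leukocytes had 9 regions, of which the 8 lists held 0 to 3.

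**Figure D3:**
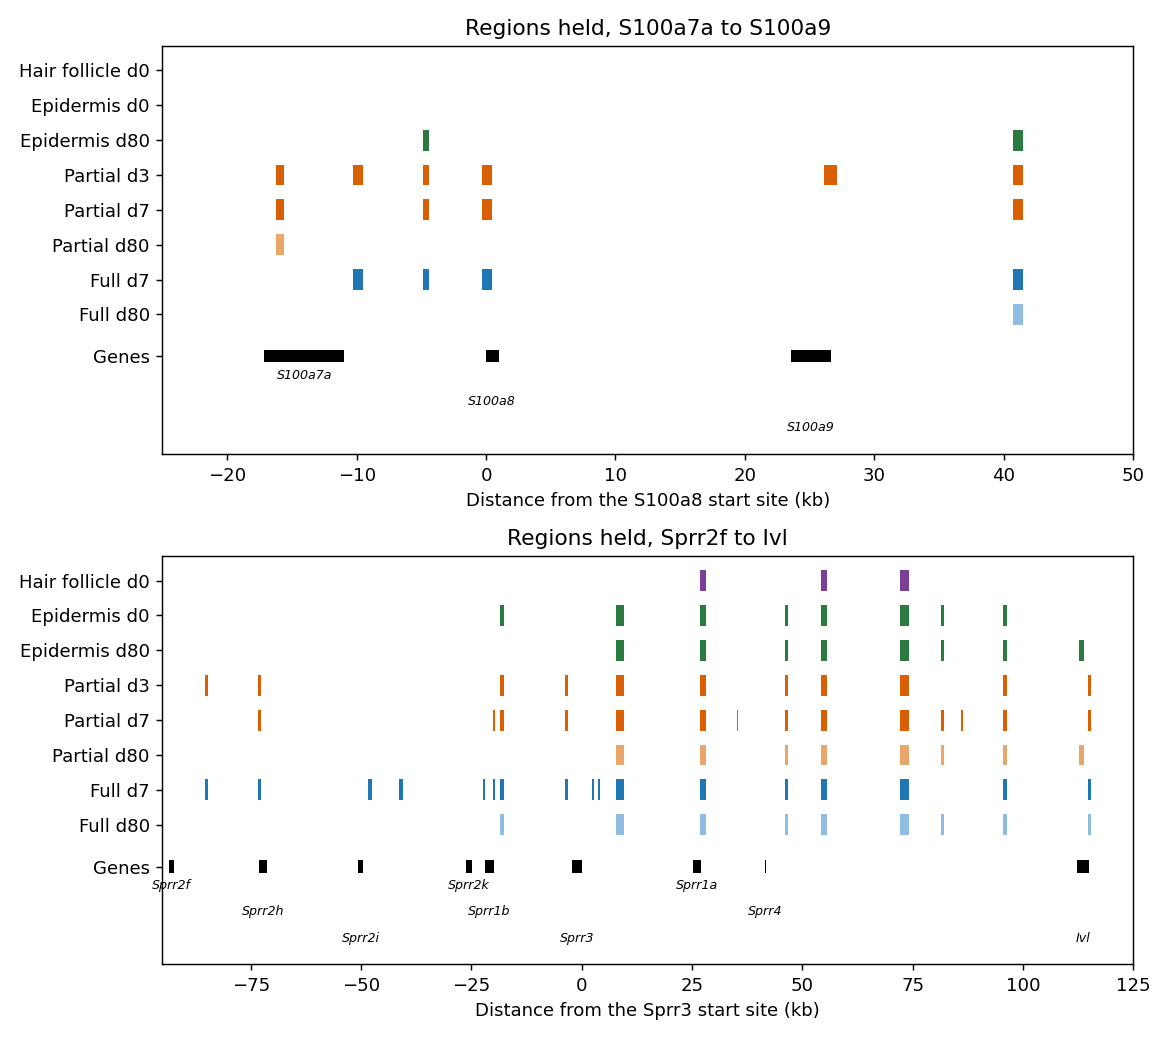
Regions held by each of the 8 lists (rows) against distance in kb from the S100a8 start (upper panel, S100a7a to S100a9) and from the Sprr3 start (lower panel, Sprr2f to Ivl), with genes as black bars below. In the upper panel the rows of the hair follicle and day 0 epidermis are empty.

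The Sprr genes varied widely between the lists. Their products are small envelope proteins that transglutaminases cross-link, and Sprr1 and Sprr2 genes are known to be induced in stressed epidermis. Of 17 regions the hair follicle list held 4, unwounded epidermis 6 and 5, the partial-thickness lists 9, 10 and 5, and the full-thickness lists 15 and 6. The lists of both wounds thus returned on day 80 to the count of unwounded epidermis. With lists of equal length the counts were 4, 6, 4, 9, 8, 3, 12 and 5 in the same order, so the rise on day 7 of the full-thickness wound was also seen there.

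Sprr2h was the single Sprr2 gene with a peak over its start. Its region, chr3:92385280-92386093, had folds of 8.57, 12.49 and 9.39 on day 3, on day 7 of the partial-thickness and on day 7 of the full-thickness wound, at percentiles up to 78.3, and no other list held it. The call was the same with lists of equal length. Of the other 9 Sprr2 genes in the table, 6 had no region (Sprr2a1, Sprr2a2, Sprr2a3, Sprr2d, Sprr2e and Sprr2k), and Sprr2b, Sprr2f and Sprr2i had regions 1066 to 8156 bp away. How reads that match several places were treated was not given in the sources used here, and some of these promoters are nearly the same: those of Sprr2a1 and Sprr2a2 are identical over 250 bases, and Sprr2d and Sprr2e share 89.2% by edit distance. Absence at these copies is therefore uncertain, while Sprr2h shares at most 80.4% with another member, Sprr2k.

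Sprr1b and Sprr3 each had regions that wound lists alone held, and 1 region each that day 0 epidermis held too. The latter lay 1491 bp upstream of Sprr1b (fold 7.14 in day 0 epidermis) and 7885 bp upstream of Sprr3 (7.71). The Sprr1b start region, chr3:92438704-92439126, had folds of 5.49 and 4.79 on day 7 of the partial-thickness and full-thickness wound, at percentiles 4.8 and 5.2, which places it among the weakest peaks of both lists. The Sprr3 region at chr3:92454973-92455683, 819 bp downstream, had folds of 11.05, 10.27 and 12.43 in the 3 early wound lists, at percentiles 83.6, 52.2 and 95.5. The Sprr3 peak was thus among the stronger ones of the day 7 full-thickness list. Sprr1a differed from both: its start region, chr3:92485632-92486939, was in all 8 lists, with folds of 7.44 in the hair follicle, 9.90 and 9.26 in unwounded epidermis, 8.19, 10.48 and 9.40 after the partial-thickness and 8.82 and 10.48 after the full-thickness wound. Sprr4, known for its response to ultraviolet light, had 2 regions in all 8 lists and 1 in every list but that of the hair follicle.

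The Lce genes had the fewest regions for their number. Only 10 of 21 had any, and 13 of the 17 regions lay between 1 and 10 kb from the gene they were given to. The hair follicle list held 3 of the 17, unwounded epidermis 8 and 6, the partial-thickness lists 11, 9 and 5, and the full-thickness lists 14 and 9. With lists of equal length the day 7 full-thickness list held 8, the same as day 0 epidermis, so the higher count on that day did not outlast this change. Lce6a alone had a peak over its start, chr3:92620817-92621885, in the other 7 lists but not in that of the hair follicle, with folds from 9.05 to 16.91.

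The region with the highest fold of the envelope genes belonged to Lce3f and was a wound region. It lies 4938 bp upstream, at chr3:92986352-92987279, with a fold of 15.73 on day 3, 17.65 on day 7 of the partial-thickness wound, 14.48 on day 7 of the full-thickness wound and 10.23 on day 80 of the full-thickness wound. No unwounded list and no day 80 partial-thickness list held it. In the 3 early lists it stood at percentiles 99.7, 99.2 and 99.3, and at 65.8 on day 80. Human relatives of the Lce3 genes are known for their induction in injured and psoriatic skin. Regions 4442 and 6579 bp upstream of Lce1k were also held by the 3 early wound lists, at folds of at most 7.11.

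Involucrin and loricrin differed from each other. Loricrin, the main protein of the mature envelope, had a region inside the gene, chr3:92080405-92082274, in all 8 lists, with folds between 6.68 and 8.91. Its other region, chr3:92069619-92070369 and 9902 bp downstream, was held by both unwounded epidermal lists (8.17 and 7.50) and both day 80 wound lists (10.78 and 9.08), and by no hair follicle or early wound list. Lce1l at chr3:92855513-92856267 and 2 more regions, of Lce1m and S100a10, had this pattern. These 4 made up 3.81% of the complex, against 2.89% of all regions, and the pattern was chosen after values were seen.

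Involucrin, an early envelope protein, had 5 regions and none in the hair follicle list. The region over its start, chr3:92573427-92574206, was held on day 3 (fold 7.45), on day 7 of the partial-thickness wound (7.98) and on days 7 and 80 of the full-thickness wound (6.46 and 6.17), and by neither unwounded list. Inside the gene, chr3:92571338-92572462 was held by the day 80 epidermal list (6.98) and the day 80 partial-thickness list (7.32) alone. Another region, chr3:92554254-92555183, lies 15716 bp downstream and was in every list but that of the hair follicle, with folds of 13.81 and 13.37 in unwounded epidermis, 15.20, 16.98 and 14.95 after the partial-thickness and 14.37 and 9.85 after the full-thickness wound. It stood at percentiles 61.8 to 99.4, so the strongest involucrin peak was common to epidermis and wounds. The peak at the start was weak: with lists of equal length the 2 early partial-thickness lists alone held it, and with the upper 75% of peaks day 3 alone.

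The fused S100 genes varied less between the lists than the Sprr and Lce genes did. Of 29 regions the hair follicle list held 13, unwounded epidermis 16 and 17, the partial-thickness lists 15, 18 and 14, and the full-thickness lists 18 and 12. The region over the start of cornulin, chr3:93144282-93145215, was in all 8 lists with folds of 12.04 to 17.78 and percentiles of 93.9 to 99.8. It had the highest fold of the fused S100 genes. Filaggrin, the keratin-bundling protein of the granular layer, had no region within its reach in any list, and filaggrin 2 had 4 regions, all upstream and 4601 to 21676 bp away. Repetin had a region at chr3:93385326-93386076 that only hair follicle cells lacked, with folds of 8.41 in day 0 epidermis to 14.70 in the day 80 full-thickness list. Both regions inside trichohyalin, a protein of the inner root sheath of the hair, were in all 8 lists.

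**Figure D4:**
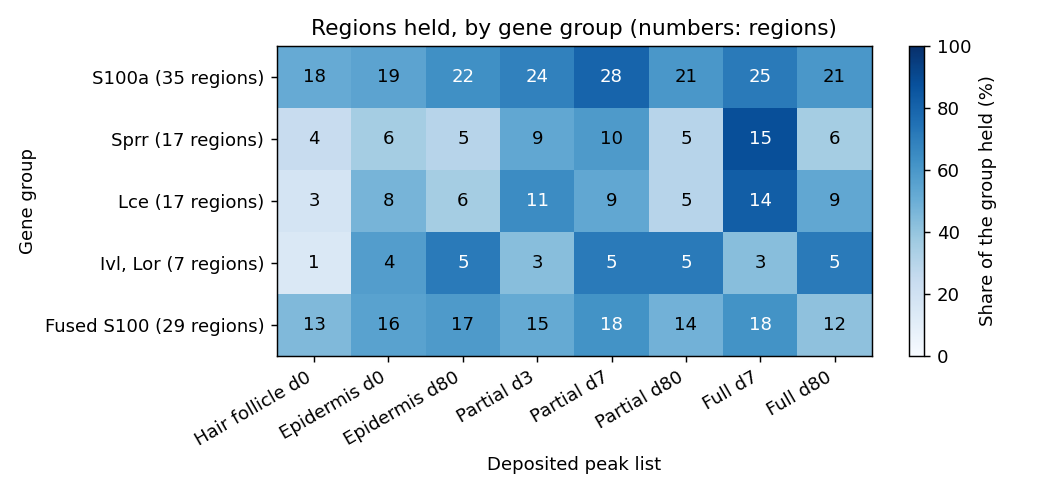
Regions held by each of the 8 lists (columns) for the 5 gene groups (rows). Numbers are regions and shading is the share of the group's regions, in percent. The Sprr row goes from 6 in day 0 epidermis to 15 on day 7 of the full-thickness wound and 6 on day 80.

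Hair follicle and day 0 epidermis were compared to ask which regions of the complex separate the unwounded cell types. Day 0 epidermis held 21 regions that the hair follicle list lacked (20.0%, interval 12.8 to 28.9), against 19.1% of all regions. The hair follicle list held 7 that day 0 epidermis lacked (6.67%, 2.72 to 13.3), against 17.2%. The complex thus had fewer hair follicle regions than the background, and its epidermal share lay near it. With peaks that cover 50% of a region the 7 became 11, against 20.7% of all regions. With the upper 75% of peaks they also became 11 (10.5%), against 13.3%, which is nearer to the background. Over the 5 suprabasal keratinocyte markers Krt1, Krt10, Tgm1, Tgm3 and Casp14, the hair follicle list held 6 of 25 regions and day 0 epidermis 11.

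The 21 epidermal regions were 6 of Lce, 6 of fused S100, 3 of S100, 3 of Sprr, and 3 of involucrin and loricrin genes. Besides those above, the first by fold were chr3:93485408-93486276 (Tchhl1, fold 11.14), chr3:92540199-92540850 (Ivl, 10.58), chr3:93346896-93348677 (Hrnr, 7.94), chr3:92466605-92468243 (Sprr3, 7.71) and chr3:92960774-92961383 (Lce3d, 7.24). Every list but that of the hair follicle held 7 regions (6.67%, against 4.82% of all regions), which belong to Sprr3, Sprr4, Ivl, Lce6a, Hrnr, Rptn and Tchhl1. This pattern was chosen after values were seen, and 4 regions (3.81%) had it with lists of equal length, against 3.44% of all regions.

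Of the 7 hair follicle regions, 4 were in no other list (3.81%, against 8.91% of all regions). They were chr3:92308013-92308911, 7794 bp upstream of Sprr2b (fold 11.37), and 3 regions of hornerin, a filaggrin-like protein: chr3:93322699-93323491 inside the gene (11.03), chr3:93345072-93345681 (7.77) and chr3:93353976-93354462 (7.64). The other 3 belong to S100a10, S100a3 and Lce3f and were found again in at least 3 wound or day 80 lists.

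Progeny of hair follicle stem cells in the partial-thickness wound were followed against these classes. Of the 21 epidermal regions the day 3 list held 10 (47.6%, against 44.6% of all regions of the class), the day 7 list 13 (61.9%, against 52.3%) and the day 80 list 16 (76.2%, against 71.8%). Day 80 epidermis held 15 (71.4%, against 71.6%), and the full-thickness lists held 10 (47.6%, against 52.6%) and 15 (71.4%, against 70.7%). Of the 7 hair follicle regions the partial-thickness lists held 2 (28.6%, against 34.9% of all regions of the class), 3 (42.9%, against 33.6%) and 1 (14.3%, against 18.9%). On day 80 the follicle progeny thus held about as many of the epidermal regions as day 80 epidermis did, and the class went with its background throughout. The day 80 partial-thickness list shared 80.7% of the regions that it or day 0 epidermis held, against 67.6% over all regions. The hair follicle and day 0 epidermal lists shared 53.3%, against 44.1%, and the day 80 partial-thickness and day 7 full-thickness lists shared 40.4%, against 53.8%.

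The early wound lists were compared with both day 0 lists to ask which regions appear while a wound heals. There were 42 such regions (40.0%, interval 30.6 to 50), against 26.7% of all regions. Sprr genes had 10 of them out of 17 regions (58.8%), Lce genes 8 of 17 (47.1%), S100 genes 13 of 35 (37.1%), fused S100 genes 9 of 29 (31.0%), and involucrin with loricrin 2 of 7 (28.6%). With peaks that cover 50% of a region the count was 47 of 105, against 32.7% of all regions. With lists of equal length it was 24 of 105, against 17.9%, and with the upper 75% of peaks 27 of 105, against 20.5%. In these last 2 settings the share of the complex thus lay nearer to the background, and no interval was computed for them. Under both of these settings 6 of the 17 Sprr regions were in the class, and the Lce genes had 5 and 7. The suprabasal markers had 9 of 25 regions in the same class (36.0%), the basal markers 17 of 50 (34.0%), and the markers of T cells and leukocytes 6 of 9 (66.7%), and the part of cell mixture in the count was not tested.

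The 3 early lists did not hold the same wound regions. The day 3 list held 19 of the 42 (45.2%, against 60.7% over all wound-gained regions), the day 7 partial-thickness list 23 (54.8%, against 47.3%) and the day 7 full-thickness list 33 (78.6%, against 70.9%). All 3 held 11 (26.2%, against 26.3%), and 13 were in the full-thickness list and no other early list (31.0%, against 25.6%). Leaving out the full-thickness list left 29 regions (against 19.8% of all regions), leaving out day 3 left 41 (against 23.3%) and leaving out day 7 of the partial-thickness wound left 36 (against 24.3%). Of the 11 in all 3 lists, the first by fold were those of Lce3f, S100a9, Sprr2h, Sprr3 and S100a8 given above, followed by chr3:93406941-93407643 (Rptn, highest fold 11.02) and chr3:93428966-93430213 (Tchh, 8.74).

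Several finer patterns were chosen after values were seen. All 3 early lists and no unwounded list held 8 regions, of S100a8, Sprr2h, Sprr3, Ivl, Lce1k (2 regions), Lce3f and Rptn, against 5.94% of all regions, and 3 had this pattern with lists of equal length, against 3.53%. Without any day 80 list there were 5 (4.76%, against 3.45%). The day 7 full-thickness list alone held 11 (10.5%, against 5.36%), 5 of them of Sprr genes. It alone held 5 with lists of equal length (4.76%, against 3.54%), so the count then lay near the background. Those of Sprr genes lie near Sprr2i (2 regions), Sprr3 (2) and Sprr1b (1), at folds of 4.09 (Sprr1b, percentile 1.6) to 7.80.

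Few of the wound regions were held on day 80, which was also so for all wound-gained regions. With 1 bp of overlap the interval lay below the background for the day 80 partial-thickness list alone. Of the 42, the day 80 partial-thickness list held 2 (4.76%, interval 0.582 to 16.2), against 17.0% of all wound-gained regions, and the day 80 full-thickness list held 7 (16.7%, 6.97 to 31.4), against 19.2%. Day 80 epidermis, which had no wound, held 4 (9.52%, against 9.65%), and 30 were in no day 80 list (71.4%, against 70.1%). Neither day 80 wound list held any of the 10 Sprr regions. With lists of equal length the day 80 partial-thickness list held 0 of 24 (against 16.5%) and the day 80 full-thickness list 2 (8.33%, against 18.5%). Where peaks had to cover 50% of a region, the day 80 lists of the partial-thickness and the full-thickness wound held 5 and 2 of 47 (10.6 and 4.26%). All wound-gained regions turned in the same way under this setting, to 22.9 and 4.96%.

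Day 80 wounds were also compared with unwounded epidermis. Regions in a day 80 wound list and in neither unwounded epidermal list numbered 8 (7.62%, interval 3.35 to 14.5), against 12.0% of all regions: 3 of S100, 3 of Lce, 1 of fused S100 genes and 1 of involucrin. They include the Lce3f region (fold 10.23 in the full-thickness list) and the region inside S100a7a (9.45 in the partial-thickness list). With lists of equal length 4 had this pattern, against 9.54% of all regions, and with the upper 75% of peaks 5 had it, against 9.2%.

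Promoters of the complex were seldom held, in any group. RefSeq starts were at hand for 55 of the 59 genes (not for S100a14, S100a2, S100a10 and Lce1f), and a promoter counted as held when a peak lay within 1 kb of any listed start. The hair follicle list held 9 (16.4%), against 48.4% of 17492 protein-coding genes. The unwounded epidermal lists each held 10 (18.2%), against 46.8 and 48.5%. The partial-thickness lists held 15 (27.3%) on days 3 and 7, against 51.3 and 50.2%, and 11 (20.0%) on day 80, against 48.1%. The full-thickness lists held 15 (27.3%) and 11 (20.0%), against 50.6 and 48.3%. Each list thus held a smaller share of these promoters than of all promoters, and the early wound lists held the most.

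In all, 18 of the 55 promoters were held by some list and 37 by none. By group those held were 10 of 12 S100, 3 of 14 Sprr, 1 of 20 Lce and 2 of 7 fused S100 promoters, and both of involucrin and loricrin. Absence at the much alike Sprr2 and Lce copies is uncertain, as stated above. All 8 lists held those of S100a1, S100a13, S100a16, S100a3, S100a4, S100a6, S100a11, Sprr1a and Crnn. Wound lists alone held 8: S100a8, S100a9, Sprr2h, Sprr1b, Ivl and Tchhl1, with a peak over the start, and S100a7a and Lor, where the nearest peak ended 875 and 868 bp from it. For Lor this was a wider day 3 peak of the region that all 8 lists held, so it marks no new region.

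Motif counts over the 300 bases around the first start of each gene were set beside all 17492 promoters. AP-1 (TGANTCA) was found in 18 of 55 (32.7%), against 7.08%, and the TATA box (TATAAA) in 24 (43.6%), against 13.3%. AP-1 was found in 9 of 14 Sprr promoters, 5 of 7 fused S100 promoters, both of involucrin and loricrin, 2 of 12 S100 promoters and 0 of 20 Lce promoters. The other motifs lay nearer to their background or were absent: GRHL (AACCNGTT) in 2 (3.64%, against 1.94%), C/EBP (TTGCNNAA) in 6 (10.9%, against 10.1%), KLF (CACCC) in 31 (56.4%, against 58.4%), ETS (CCGGAAG) in 0 (against 11.9%) and a p63 pair, which is CATG repeated after 6 other bases, in 0 (against 0.755%). Matches were taken on either strand, and no motif contains another.

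AP-1 letters stood in held and in unheld promoters. They were found in 3 of the 9 held by all 8 lists, in 5 of the 8 held by wound lists alone and in 10 of the 37 held by none, and not in Lce6a. Of 10 Sprr2 promoters, 7 have TGAGTCA between 193 and 198 bases before the start, as printed above for Sprr2h and Sprr2d, and Sprr2h alone of them was held. Absence at the other Sprr2 copies is uncertain, as stated above. S100a8, held in the 3 early wound lists, has no match in its window. These related promoters are not independent of each other, and a match to letters is no evidence of a bound factor.

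**Figure D5:**
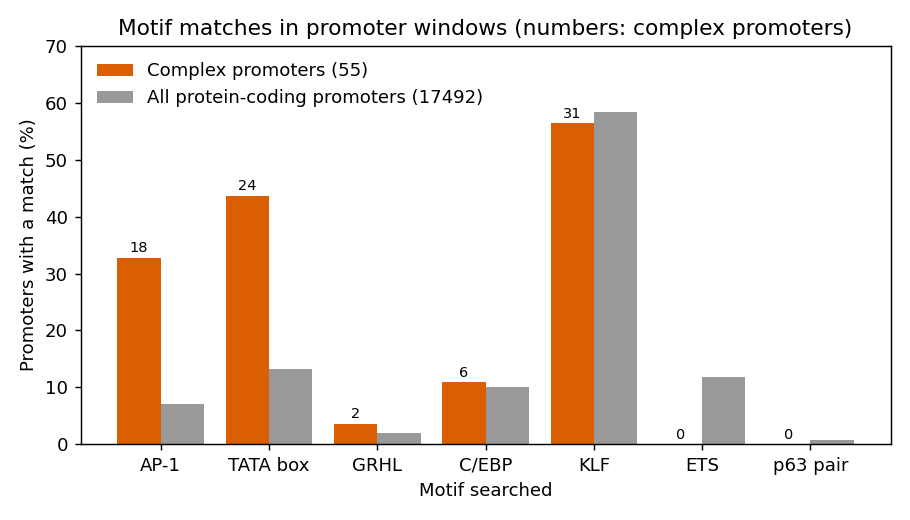
Share of promoters with at least 1 match to each of 7 motifs (vertical axis, percent), for the 55 promoters of the complex (orange, with the number of promoters above the bar) and all 17492 protein-coding promoters (grey). AP-1 (32.7 against 7.08%) and the TATA box (43.6 against 13.3%) differ most between the bars.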

How the data were processed

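The data were 8 deposited peak lists in narrowPeak layout, 1 per group, without a header. Bowtie, Picard, MACS2 2.1.1.20160309, bedtools 2.29.2 and the mm10 build are named, without role or order, per the submitters' processing notes. The deposited score of a peak equals 10 times its −log10 q, within 1 unit. The deposited fold enrichment, a ratio over the local background, and the −log10 p and −log10 q deposited with it are the authors' and were used only to rank, filter or describe peaks within a list. Pooling of samples and the treatment of reads with several matches: not given in the sources used here.

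Peaks that overlap were merged, and a list held a region from 1 bp of overlap. Regions were given to the nearest protein-coding gene in a RefSeq table (GRCm38.p6, which is mm10). A region inside several genes went to the shortest. The table gives no exons, so exon and UTR positions were not analysed here. Python 3.11.15, NumPy 2.4.6, SciPy 1.17.1 and Matplotlib 3.10.9 were used, and the merging and counting were tested on simulated peaks. With 1 list per group no test was run, and the background beside each share is the same share over all regions or promoters. The members, gene lists and classes were chosen with earlier results of these data known.

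Coordinates were printed for up to 10 regions of each of 4 classes (hair follicle or day 0 epidermis alone of that pair, wound-gained, and day 80 wound without unwounded epidermis), ordered by the number of lists and then by fold, and for the region with the highest fold of each gene group. Other regions that are named were chosen after their values were seen. Alternatives were 50% coverage, the upper 75% of peaks by score, lists of equal length, windows of 10 and 100 kb, merging over 200 bp, another epidermal list, leaving out an early list, the start itself for promoters, and 250 bases for motifs. Marker lists not given with the results were fibroblast (7 of 10 regions in the hair follicle list, 2 to 4 in the others), endothelial (3 of 13 in the hair follicle list, 4 to 9 in the others) and melanocyte (12 of 18 in the hair follicle list, 6 to 8 in the others).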

Additional observations from a re-analysis of the deposited data

How the results depend on the processing

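No paired analysis was possible because each group was deposited as 1 peak list without replicate columns and no test was run. No count compared moved by more than 1.5 times with a 100 kb window, with peaks merged over 200 bp, with the day 80 epidermal list in place of day 0 (3 counts), without any 1 early wound list, or with the alternatives for promoters and motifs. With 50% coverage, the day 80 full-thickness list held 18 of the 105 regions, against 19.1% of all regions. Then 11 were in the hair follicle and not the day 0 epidermal list (against 20.7%), and 8 were in all 8 lists (against 7.09%). With the upper 75% of peaks, 11 were in the hair follicle and not the day 0 epidermal list (against 13.3%), and 27 were wound-gained (against 20.5%). Under that setting 5 were in a day 80 wound list without unwounded epidermis (against 9.2%) and 18 were in all 8 lists (against 16.1%). With lists of equal length, 24 were wound-gained (against 17.9%) and 4 were in a day 80 wound list without unwounded epidermis (against 9.54%). A 10 kb window keeps 67 regions of the complex and lowers every count, while the shares over all regions stay the same. Of the 67, the hair follicle list held 24 (against 45.9%) and the epidermal lists 30 and 31 (against 47.8 and 49.8%). The partial-thickness lists of days 7 and 80 held 44 and 29 (against 55 and 51.9%), and the day 80 full-thickness list 34 (against 51.1%). Day 0 epidermis and not the hair follicle list held 11 (against 19.1%), and 18 were in all 8 lists (against 22%). The number of lists that held a region was unchanged for 64, 39 and 59 of 105 regions under 50% coverage, the upper 75% of peaks and equal length. Depth is unknown, so a region absent from a list was not detectable at that list's cut, which is not absence of accessible DNA.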

Other observations

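The gene names left out some neighbours of the complex. The 7 genes Pglyrp3, Pglyrp4, Kprp, Smcp, Lelp1, Prr9 and Crct1 had 19 regions, of which 5 (26.3%) were wound-gained (held early in a wound but by no day 0 list), close to the 26.7% of all regions. Lelp1 had 5 regions, of which day 7 of the partial-thickness wound held 4 and the hair follicle list 2. The 14 cornification genes elsewhere in the genome had 66 regions, of which 17 (25.8%) were in that class. The hair follicle list held 27 of the 66, unwounded epidermis 32 and 40, the partial-thickness lists 31, 37 and 45, and the full-thickness lists 46 and 37. Tgm3, a transglutaminase that cross-links envelope proteins, had 15 regions, of which these lists held 3, 7, 9, 3, 7, 12, 12 and 8 in the same order. Krt10, a keratin of suprabasal cells, had 3 regions, and neither the day 3 nor the day 7 partial-thickness list held any of them, while the day 80 lists of the partial-thickness and full-thickness wound held 2 and 3.

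The 16 regulators of differentiation had 116 regions, of which 37 (31.9%) were wound-gained. Ovol1, a zinc finger repressor that acts in epidermal differentiation, had 3 regions: no unwounded list held any, the partial-thickness lists held 2, 3 and 1, and the full-thickness lists 1 and 2. Prdm1, which encodes a repressor of terminally differentiating cells, had 11 regions, of which the hair follicle list held 3, each unwounded epidermal list 4, the partial-thickness lists 9, 9 and 6 and the full-thickness lists 8 and 5. Grhl3, a barrier factor, had 11 regions, of which the hair follicle list held 3, unwounded epidermis 5 on day 0 and 7 on day 80, the partial-thickness lists 5, 4 and 8, and those of the full-thickness wound 5 and 9. With 1 list per group these are values without replicates, and no difference between the gene lists was tested.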
